A study of Mus musculus with 12 samples.

Results

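The 10 genes described here mark macrophages or their polarization, and they were read as the rows of the count and FPKM tables whose gene symbol is Csf1r, Cd68, Lyz2, Cx3cr1, Mrc1, Cd163, Msr1, Chil3, Retnla or Nos2. They are 10 of 24421 gene symbols, and where a symbol had several RefSeq transcripts, the transcript with the highest total over all libraries was used. RNA-seq was performed on whole kidneys of C57BL/6 male mice at 6 weeks of age in 4 groups of 3 libraries: WT and Tet2-/- kidneys of healthy control mice (baseline), and WT and Tet2-/- kidneys after ischemia reperfusion (IR). In the IR mice, blood flow to the right kidney was stopped for an hour, and this kidney, the sole one left to the animal, was sampled a day later. The baseline mice are labelled healthy controls, with no operation named in the labels, so the IR effect may include surgery and the loss of a kidney. The Tet2-/- mice came from heterozygous breeders of C57BL/6J background, and the sources used here name no restriction of the deletion to a tissue.

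Macrophages in the kidney are tissue-resident cells, some of embryonic origin, joined after injury by cells that arise from blood monocytes. They depend on the receptor encoded by Csf1r and its ligands Csf1 and Il34, and they clear debris through scavenger receptors and lysosomal enzymes. In mice, exposure to interferon-gamma and microbial products gives a classical program with Nos2 as its usual marker, and exposure to IL-4 or IL-13 gives an alternative program through STAT6 with Mrc1, Chil3 and Retnla among its usual markers. Neutrophils, the other phagocytes that enter an injured kidney early, share several of these genes, Lyz2 and Chil3 among them.

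On mm9, in the RefSeq transcripts of the count table, Cx3cr1, which encodes the fractalkine receptor, lies at chr9:119957801-119977414 (-), and the lysosomal markers Cd68 and Lyz2 at chr11:69477715-69479672 (-) and chr10:116714597-116719328 (-). The scavenger and lectin receptors Mrc1, Cd163 and Msr1 lie at chr2:14151041-14253650 (+), chr6:124254669-124280545 (+) and chr8:40688806-40728032 (-). Of the polarization genes, Chil3, which encodes the chitinase-like protein Ym1, lies at chr3:105950472-105970482 (-), Retnla, which encodes the secreted protein RELMalpha, at chr16:48842665-48844574 (+), and Nos2, which encodes inducible nitric oxide synthase, at chr11:78734289-78773728 (+). Each value is given per transcript, so it does not separate coding sequence from UTR.

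For Chil3 and Lyz2 a close copy lies on the same strand of the same chromosome, and their reads can be split or shared between the copies. The coding sequence of Chil3 was 95.3% identical to that of Chil4, with 1141 identical bases of 1197 aligned and a longest identical run of 136 bases. Lyz2 was 95.1% identical to Lyz1, with 425 identical bases of 447 aligned and a longest identical run of 118 bases. The first 150 coding bases of each, read from GENCODE vM1 on the same genome build, are shown to make this likeness visible, with the bases that differ between the copies in capitals (3 in the Chil3 pair and 14 in the Lyz2 pair).
Chil3: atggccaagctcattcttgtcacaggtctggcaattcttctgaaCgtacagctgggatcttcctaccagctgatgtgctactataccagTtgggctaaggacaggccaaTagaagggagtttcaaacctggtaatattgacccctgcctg
Chil4: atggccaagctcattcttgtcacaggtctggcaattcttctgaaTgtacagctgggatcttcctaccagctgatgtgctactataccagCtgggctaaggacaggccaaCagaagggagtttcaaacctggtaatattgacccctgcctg
Lyz2: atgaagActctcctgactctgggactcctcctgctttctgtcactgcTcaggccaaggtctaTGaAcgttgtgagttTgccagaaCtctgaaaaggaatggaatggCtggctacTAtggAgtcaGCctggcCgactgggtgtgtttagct
Lyz1: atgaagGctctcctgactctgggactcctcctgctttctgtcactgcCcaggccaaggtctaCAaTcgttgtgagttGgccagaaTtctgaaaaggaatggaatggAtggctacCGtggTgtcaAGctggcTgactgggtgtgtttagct
How reads that match both copies were counted is not given in the sources used here, so levels of Chil3 and Lyz2 are uncertain by the share of such reads.

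The 250 bases before the annotated start of Chil3 and Retnla are shown because these alternative activation markers moved in different ways in the kidney. They are RefSeq starts on GRCm38.p6, at chr3:106167565-106167814 (-) and chr16:48842359-48842608 (+), and a table of such promoters held 7 of the 10 genes in a form that could be used. Capitals mark matches, on either strand, to the core of the myeloid factor PU.1 (GAGGAA) and to the spacing bound by STAT6 (TTC and GAA with 4 bases between them), which do not overlap here.
Chil3 promoter: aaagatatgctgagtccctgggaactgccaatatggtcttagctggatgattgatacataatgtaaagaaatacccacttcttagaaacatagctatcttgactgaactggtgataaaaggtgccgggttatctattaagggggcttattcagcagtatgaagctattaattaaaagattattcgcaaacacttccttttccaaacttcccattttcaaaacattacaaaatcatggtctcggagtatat
Retnla promoter: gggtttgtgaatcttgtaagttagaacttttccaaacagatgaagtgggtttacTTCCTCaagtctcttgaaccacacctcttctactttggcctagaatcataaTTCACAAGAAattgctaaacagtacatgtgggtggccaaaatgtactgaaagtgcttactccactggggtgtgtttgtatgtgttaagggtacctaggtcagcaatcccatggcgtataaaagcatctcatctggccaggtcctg
The Retnla promoter held 1 PU.1 core and 1 STAT6 spacing, the latter starting 145 bases upstream of the start. The Chil3 promoter held neither. Among 32851 promoters of the same length, 23.3% held the PU.1 core and 5.9% the STAT6 spacing. Mrc1 held 3 PU.1 cores and Cd68 held 1, and no match was found for Lyz2, Cx3cr1 and Cd163. A match describes letters in this window and is not a bound site.

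Total counts on the transcripts used ran from 51007366 to 107969888 per library. Kidney tubule genes gave a summed level of 34400 to 53000 FPKM (fragments per kilobase of transcript, scaled to library depth) in the baseline libraries and 17100 to 26200 FPKM in the IR libraries. Most of this sum was 1 gene, Kap, at 30600 to 49800 FPKM at baseline and 13900 to 23700 FPKM after IR. Tet2 itself was listed at 6.25 to 9.15 FPKM in WT and 9.24 to 16.6 FPKM in Tet2-/- baseline kidneys, and at 3.85 to 9.34 FPKM in WT and 1.76 to 3.20 FPKM in Tet2-/- kidneys after IR. Its level was thus not lower under the baseline knockout label (log2 fold change 0.76, edgeR's quasi-likelihood test, adjusted p = 0.321) or called lower after IR (-1.28, adjusted p = 0.069), and the deleted part of the gene is not given in the sources used here, so the knockout libraries are named by their label. The summed FPKM of 8 adipocyte genes stood apart in WT baseline replicates 2 and 3, at 148 and 322, and in replicate 3 of the IR libraries labelled Tet2-/-, at 611, against 16.1 to 114 in the other libraries, and its part in the members' values was not tested. Whether the libraries came from separate mice is stated in the study's methods and not in the labels, and all tests measure the spread between libraries only.

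Most of the 10 genes were low. At WT baseline 3 of 10 had a mean of at least 1 FPKM, namely Csf1r, Lyz2 and Cd68, and these 3 were also the highest in the baseline group labelled Tet2-/- and after IR in WT. After IR in the group labelled Tet2-/-, 5 of 10 reached 1 FPKM, since Chil3 and Msr1 joined them. Csf1r led at baseline with 19.2 ± 1.99 FPKM in WT (SD, n = 3) and 24.0 ± 6.50 FPKM under the Tet2-/- label. After IR, Cd68 led in WT with 11.3 ± 1.98 FPKM, and it did not separate from Lyz2 at 9.06 ± 5.05 FPKM or Csf1r at 8.81 ± 6.18 FPKM. Lyz2 had the highest mean after IR under the Tet2-/- label, 46.0 ± 63.9 FPKM, a mean that rests on 1 library. Cd163 and Nos2 stayed at or below 0.221 and 0.186 FPKM, where 1 library held as few as 1.5 counts of Nos2 and 2.0 counts of Cd163. In whole kidney, fewer cells of a type and less RNA per cell cannot be told apart.

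**Figure D1:**
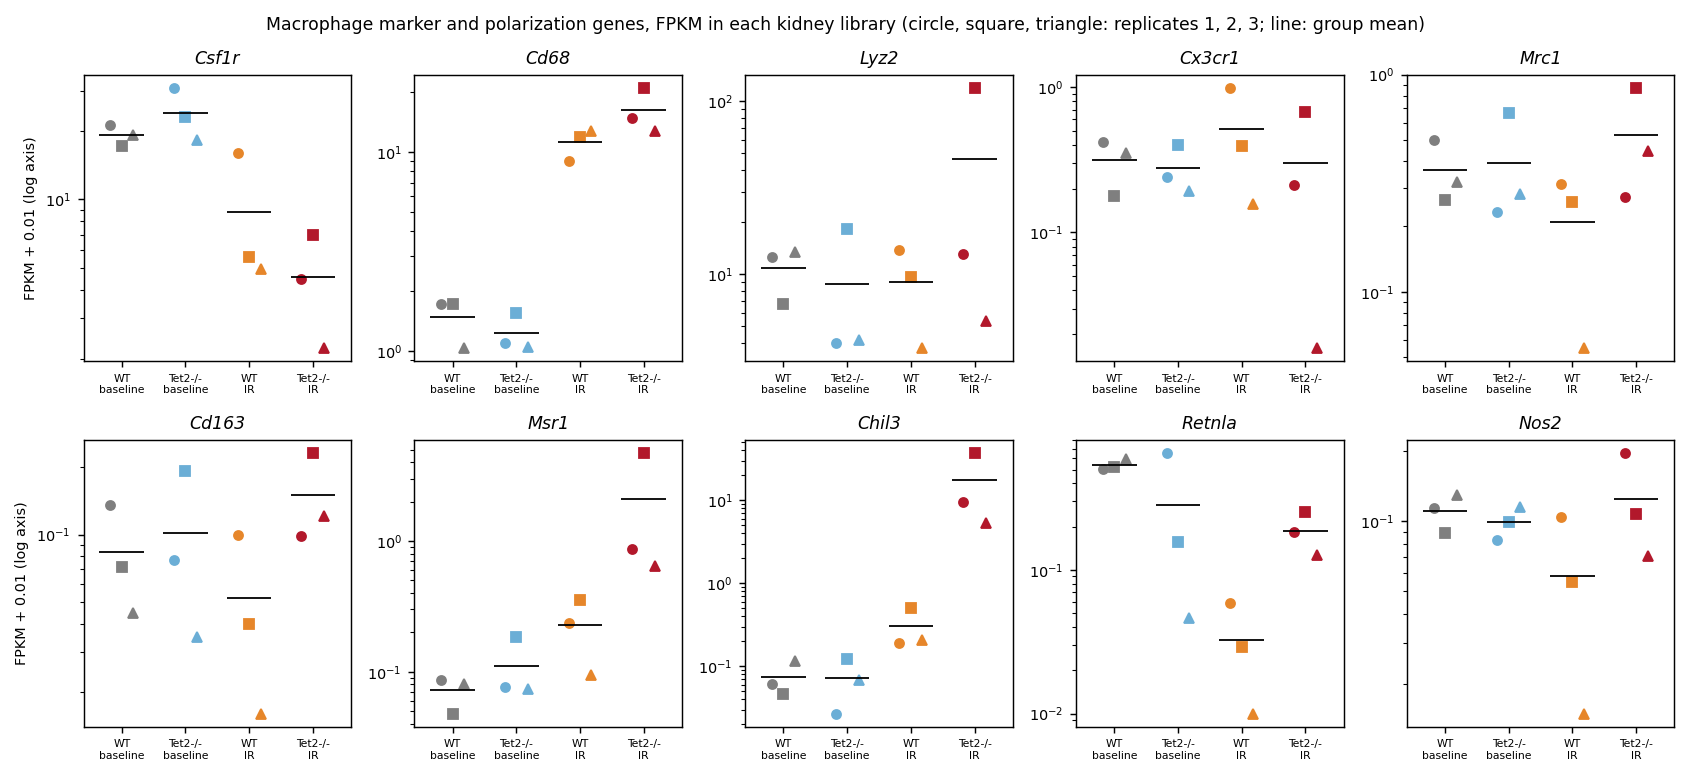
FPKM plus 0.01, on a log axis, of the 10 genes in each of the 12 kidney libraries by group; circles, squares and triangles are replicates 1, 2 and 3 and the line is the group mean. Cd68 rose after IR under both genotype labels, Csf1r was lower in every IR library than in the baseline libraries of the same genotype label, and Chil3 and Msr1 stood highest in the 3 IR libraries labelled Tet2-/-.

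No macrophage gene was called between the genotype labels at baseline. Of the 9 genes that passed edgeR's filter on low counts, 0 were called higher and 0 lower, with calls made at a log2 fold change beyond 1 in either direction and an adjusted p below 0.05, where 0.0124% of all 16086 genes tested were called higher and 0% lower. No member had an unadjusted p under 0.05 in edgeR's quasi-likelihood test (0 of 9, beside 11.8% of all genes tested), and DESeq2 called 0 as well. Csf1r was at 21.1, 17.2 and 19.2 FPKM in WT and at 30.9, 23.0 and 18.1 FPKM under the Tet2-/- label, so the groups overlapped (log2 fold change 0.41 ± 0.19 (SE), edgeR adjusted p = 0.454). Cd68, the lysosomal glycoprotein of phagocytes, was at 1.71, 1.70 and 1.02 FPKM in WT and at 1.08, 1.53 and 1.04 FPKM under the Tet2-/- label (-0.18 ± 0.29). The other fitted values ran from -0.96 for Retnla to 0.83 for Msr1, and Chil3, with 2.0 to 26.0 counts per baseline library, was not tested.

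IR in WT kidneys changed few of the macrophage genes. Cd68 rose and Retnla fell, so that 1 of 10 members was called higher against 1.46% of all 16015 genes tested, and 1 of 10 lower against 0.887%. Retnla passed the filter on low counts here only through the WT baseline libraries, where it is high, so the count lower depends on that filter. Csf1r, Msr1 and Chil3 did not overlap between the groups but were not called. How often groups of 3 libraries do not overlap over all genes was not counted, in this or any other comparison. A lack of overlap is thus a description of the values and not a result about the members.

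Cd68 rose from the baseline values to 9.04, 11.9 and 12.8 FPKM in the WT IR libraries. Every IR library was above every baseline library, and the log2 fold change was 2.88 ± 0.28 (edgeR's quasi-likelihood test, adjusted p = 0.00842). Without WT baseline replicates 2 and 3, the libraries with high adipocyte genes, it was 2.65 with an adjusted p of 0.248 by edgeR, in a fit that assumes that the lone baseline library varies like the IR libraries.

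Retnla was at 0.492, 0.512 and 0.586 FPKM at WT baseline and at 0.049, 0.019 and 0 FPKM after IR. All WT IR libraries were below all WT baseline libraries, with 3 rounded counts in total against 88. Per depth the baseline was 24.8 times the IR level, with a 95% counting interval of 8.21 to 122, and the fitted log2 fold change of -4.53 ± 0.67 (edgeR adjusted p = 0.0225) depends on the prior count. The call was lost with any 1 of the 3 WT baseline libraries left out (edgeR adjusted p = 0.0853, 0.0715 and 0.0769 without replicates 1, 2 and 3), without WT IR replicate 2 (0.105), and with baseline replicates 2 and 3 both left out (0.338).

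Csf1r was at 15.9, 5.57 and 4.93 FPKM after IR in WT kidneys. The 3 libraries were below all WT baseline libraries, but replicate 1 lay close to them. The log2 fold change was -1.21 ± 0.42 with an edgeR adjusted p of 0.156. With the replicate number as a block, which does not pair animals, it was -1.40 (edgeR adjusted p = 0.0289). Leaving out WT IR replicate 1 gave -1.91 (edgeR adjusted p = 0.00769).

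Msr1, which encodes the class A scavenger receptor, was at 0.077, 0.038 and 0.071 FPKM at WT baseline and at 0.226, 0.346 and 0.084 FPKM after IR (log2 fold change 1.73 ± 0.55, edgeR adjusted p = 0.131). Chil3 was at 0.052, 0.036 and 0.105 FPKM at WT baseline and at 0.179, 0.499 and 0.200 FPKM after IR (2.07 ± 0.59, edgeR adjusted p = 0.106). In both genes the IR libraries were above the baseline libraries, at levels of 19.0 to 66.0 counts of Chil3 per IR library. Mrc1, the mannose receptor gene, and Cd163, the haemoglobin scavenger receptor gene, had fitted values of -0.92 ± 0.63 and -0.91 ± 0.84 with overlapping groups. Lyz2 (-0.36 ± 0.45), Cx3cr1 (0.62 ± 0.66) and Nos2 (-1.17 ± 0.72) overlapped as well, and edgeR's adjusted p of these 5 genes ran from 0.379 to 0.67. An unadjusted p under 0.05 was found for 5 of the 10 members and for 22.7% of all genes tested.

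In the kidneys labelled Tet2-/-, Cd68, Msr1 and Chil3 rose and Csf1r fell after IR. These were 3 of 10 members called higher, where 12.7% of all 16359 genes tested were, and 1 of 10 called lower, where 11.6% were. By edgeR, 4 of 10 members had an unadjusted p under 0.05, beside 51.8% of all genes tested. Chil3 had the largest fitted change of the members. It passed the filter on low counts here only through the IR libraries, where it is high, so the count higher depends in part on that filter.

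Chil3 was at 0.017, 0.113 and 0.059 FPKM at baseline and at 9.47, 37.1 and 5.37 FPKM after IR under the Tet2-/- label, with 774.5 to 7287 counts per IR library. Every IR library was above every baseline library, and replicate 2 was the highest. The log2 fold change was 7.64 ± 0.93 (edgeR's quasi-likelihood test, adjusted p = 0.000765), and the call held in all 15 alternatives run.

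Msr1 was at 0.066, 0.174 and 0.064 FPKM at baseline and at 0.862, 4.71 and 0.634 FPKM after IR under the Tet2-/- label. The groups did not overlap and replicate 2 again stood highest (4.0 ± 0.85, edgeR adjusted p = 0.00786, 2.66 to 4.66 with 1 library left out). Of 15 alternatives the call was lost in 1, limma on log2(FPKM + 1), at 1.24 and an adjusted p of 0.0619. Cd68 rose to 14.9, 21.1 and 12.8 FPKM, above all baseline libraries (3.46 ± 0.24, edgeR adjusted p = 0.000121).

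Csf1r fell to 4.44, 6.93 and 2.21 FPKM after IR under the Tet2-/- label. All IR libraries were below all baseline libraries (-2.69 ± 0.37, edgeR adjusted p = 0.00124), and the call held in all 15 alternatives run. This receptor and Cd68 thus moved in opposite directions in the same libraries. The tubule sum, most of it Kap, was also lower after IR under the Tet2-/- label, at 51100 to 53000 FPKM at baseline and 17100 to 23300 FPKM after IR. Not every tubule gene fell: Umod was at 891, 1470 and 807 FPKM at baseline and at 2020, 2510 and 354 FPKM after IR. Of 7 tubule genes, 4 were called lower and 0 higher, beside 11.6% and 12.7% of all genes, among them Slc34a1 (-3.08 ± 0.29) and Lrp2 (-1.94 ± 0.24), transport genes of the proximal tubule. The part of tubule cells in the level of Csf1r was not tested.

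Lyz2, the lysozyme gene of macrophages and neutrophils, was at 3.99, 18.2 and 4.16 FPKM at baseline and at 13.1, 120 and 5.36 FPKM after IR under the Tet2-/- label. The groups overlapped, and replicate 2 was the highest library of each. The fitted value of 2.05 ± 1.10 (edgeR adjusted p = 0.171) became -0.13 without IR replicate 2. With the replicate number as a block, which does not pair animals, it was 1.37 and passed (edgeR adjusted p = 0.0198).

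The remaining 5 genes overlapped between the groups and had fitted values near 0 beside their errors. These were Mrc1 (0.15 ± 0.53), Cd163 (0.34 ± 0.69), Cx3cr1 (-0.21 ± 1.04), Retnla (-0.80 ± 0.86) and Nos2 (0.11 ± 0.47). Retnla was at 0.643, 0.146 and 0.036 FPKM at baseline and at 0.175, 0.243 and 0.116 FPKM after IR under the Tet2-/- label, so the baseline libraries alone spanned the IR range.

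**Figure D2:**
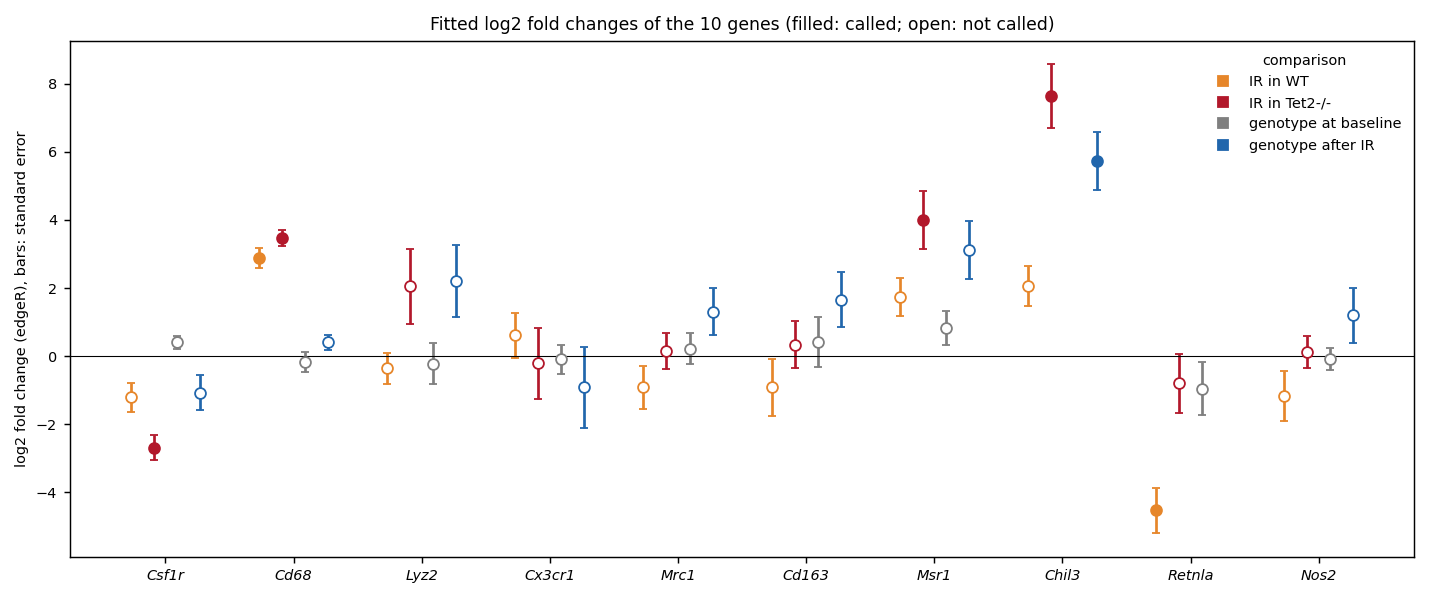
Log2 fold change fitted by edgeR, with its standard error as bars, for the 10 genes in 4 comparisons shown by colour; filled points were called and open points were not. Chil3 reached 7.64 after IR under the Tet2-/- label and 5.73 between the genotype labels after IR, Cd68 was called in both IR comparisons, and no point of the baseline genotype comparison was filled.

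After IR the genotype labels differed in Chil3. It was at 0.179, 0.499 and 0.200 FPKM in WT and at 9.47, 37.1 and 5.37 FPKM under the Tet2-/- label, a mean of 0.293 ± 0.179 against 17.3 ± 17.3 FPKM. The lowest library labelled Tet2-/- was above the highest WT library. It was the 1 member of 9 tested that was called higher, where 2.3% of all 16186 genes were, and 0 of 9 were called lower, where 3.85% were. The log2 fold change was 5.73 ± 0.84 (edgeR's quasi-likelihood test, adjusted p = 0.0146) and ran from 4.61 to 6.30 with 1 library left out. The call was lost without WT IR replicate 1, at 5.46 and an edgeR adjusted p of 0.055. DESeq2 called 2 members higher, Chil3 and Msr1, and 0 lower, and 2 of 9 members had an unadjusted p under 0.05 by edgeR, as 28.9% of all genes tested did.

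Msr1 was at 0.226, 0.346 and 0.084 FPKM in WT and at 0.862, 4.71 and 0.634 FPKM under the Tet2-/- label. The groups did not overlap, but the difference of 3.12 ± 0.85 had an edgeR adjusted p of 0.063. It was 1.76 at the lowest with 1 library left out, and it passed with DESeq2 (3.10, adjusted p = 0.000427) and in a joint edgeR fit of the 12 libraries (3.10, adjusted p = 0.0168).

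Retnla did not pass the filter on low counts in this comparison. The WT IR libraries held 3 rounded counts in total and the IR libraries labelled Tet2-/- held 36. The ratio per depth was 8.44 with a 95% counting interval of 2.67 to 42.9, which covers counting error only, and the FPKM of the groups did not overlap.

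Csf1r overlapped between the genotype labels after IR (-1.07 ± 0.52, edgeR adjusted p = 0.224), as did Cd68 (0.41 ± 0.22, edgeR adjusted p = 0.272). Lyz2 had a fitted value of 2.20 ± 1.06 that was -0.00 without IR replicate 2 of the Tet2-/- label. Mrc1 was at 0.304, 0.249 and 0.045 FPKM in WT and at 0.262, 0.862 and 0.436 FPKM under the Tet2-/- label (1.31 ± 0.69, edgeR adjusted p = 0.26). Cd163 was at 0.090, 0.030 and 0.006 FPKM in WT and at 0.089, 0.221 and 0.111 FPKM under the Tet2-/- label (1.66 ± 0.81, edgeR adjusted p = 0.226). The groups of both receptors overlapped. Nos2, the classical marker, was at 0.094, 0.045 and 0.005 FPKM in WT and at 0.186, 0.097 and 0.061 FPKM under the Tet2-/- label (1.20 ± 0.81, edgeR adjusted p = 0.369), and Cx3cr1 had the sole negative value beside Csf1r (-0.92 ± 1.20).

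The difference between the IR effects of the genotype labels was tested over all 12 libraries. It was called at an adjusted p under 0.05 for 1 of 10 members, Chil3, where 3.79% of all 16741 genes were called higher and 5.39% lower. The difference was 5.61 ± 1.16 on the log2 scale (edgeR's quasi-likelihood test, adjusted p = 0.0156), and without WT baseline replicate 3 it was 5.08 with an edgeR adjusted p of 0.0594. Retnla had a difference of 3.77 ± 1.30 (edgeR adjusted p = 0.0893), which passed without baseline replicate 1 of the Tet2-/- label (5.18, adjusted p = 0.0225). Csf1r (-1.45 ± 0.60, edgeR adjusted p = 0.148) and Msr1 (2.29 ± 1.05, adjusted p = 0.185) did not pass. For Cd68 the difference was 0.62 ± 0.36 (adjusted p = 0.286). By edgeR, 3 of 10 members had an unadjusted p under 0.05 for this difference of effects, beside 27.2% of all genes tested. The IR and genotype comparisons share libraries, so their values for a gene are not independent.

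The summed level of a list of neutrophil genes was highest in the libraries where Chil3 was, though not every gene of the list was. The summed FPKM of 13 neutrophil genes was 0.721 to 2.59 at WT baseline, 1.99 to 3.28 at baseline under the Tet2-/- label, 4.2 to 9.67 after IR in WT and 76.1 to 135 after IR under the Tet2-/- label. In the last group most of the sum came from S100a8, S100a9 and Retnlg, the latter at 15.9, 10.8 and 12.3 FPKM. S100a8, S100a9, Csf3r, Mmp9 and Ltf passed the filter on low counts in every comparison, and between the genotype labels after IR 4 of these 5 were called higher, all but Ltf, and 0 lower, beside 2.3% and 3.85% of all genes. Csf3r and Mmp9 each lost the call in 4 of 6 fits with 1 library left out. Retnlg, Ly6g, Cxcr2, Mmp8 and Ngp passed the filter only in comparisons that hold the IR libraries labelled Tet2-/-, where they are high, so they are not counted here. S100a8 and S100a9, which encode the subunits of calprotectin, reached 40.4 ± 11.3 and 52.4 ± 17.0 FPKM after IR under the Tet2-/- label, from 2.46 ± 0.773 and 3.36 ± 1.56 FPKM in WT. Elane and Mpo, granule genes of immature neutrophils, were at or near 0 in every group, with at most 2.5 and 7.5 counts in a library, and neither was tested. Under the Tet2-/- label Camp was at 0.045, 0.106 and 0.242 FPKM at baseline and at 0.091, 0.269 and 0 FPKM after IR. Ltf was at 0.032, 0.137 and 0.101 FPKM at baseline and at 0.058, 0.235 and 0.091 FPKM after IR, so both overlapped.

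The summed FPKM of 12 macrophage markers (Adgre1, Csf1r, Cd68, Fcgr1, Mertk, C1qa, C1qb, C1qc, Aif1, Mpeg1, Cx3cr1 and Mrc1) overlapped in all 4 groups, with Csf1r and Cd68, which moved in opposite directions, both in the sum. It was 45.8 to 68.0 at WT baseline, 44.6 to 74.8 at baseline under the Tet2-/- label, 34.8 to 75.3 after IR in WT and 34.6 to 104 after IR under the Tet2-/- label. Between the genotype labels after IR, 0 of these 12 were called by edgeR, beside 2.3% of all genes higher and 3.85% lower, with a median of 0.48 that became -0.15 without IR replicate 2 of the Tet2-/- label. The sum of the longer list of 31 monocyte and macrophage identity genes was 217 to 281 FPKM at baseline and 489 to 699 FPKM after IR under the Tet2-/- label, but 58.3% to 85.3% of it after IR came from Lgmn, a lysosomal protease gene that tubule cells also express. Without Lgmn and Cd14, left out after their values were seen, it was 54.1 to 93.6 FPKM at baseline and 70.9 to 212 FPKM after IR, and the groups overlapped. This overlap depends on leaving out Cd14, which was called higher and went from 1.09 to 1.85 FPKM at baseline to 31.9 to 50.9 FPKM after IR. The ratio of Chil3 to the macrophage gene Adgre1 was 0.273, 1.60 and 1.90 in the WT IR libraries and 30.6, 32.8 and 52.1 in the IR libraries labelled Tet2-/-. The part of neutrophils, or of any other cell type, in the level of Chil3 was not tested.

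**Figure D3:**
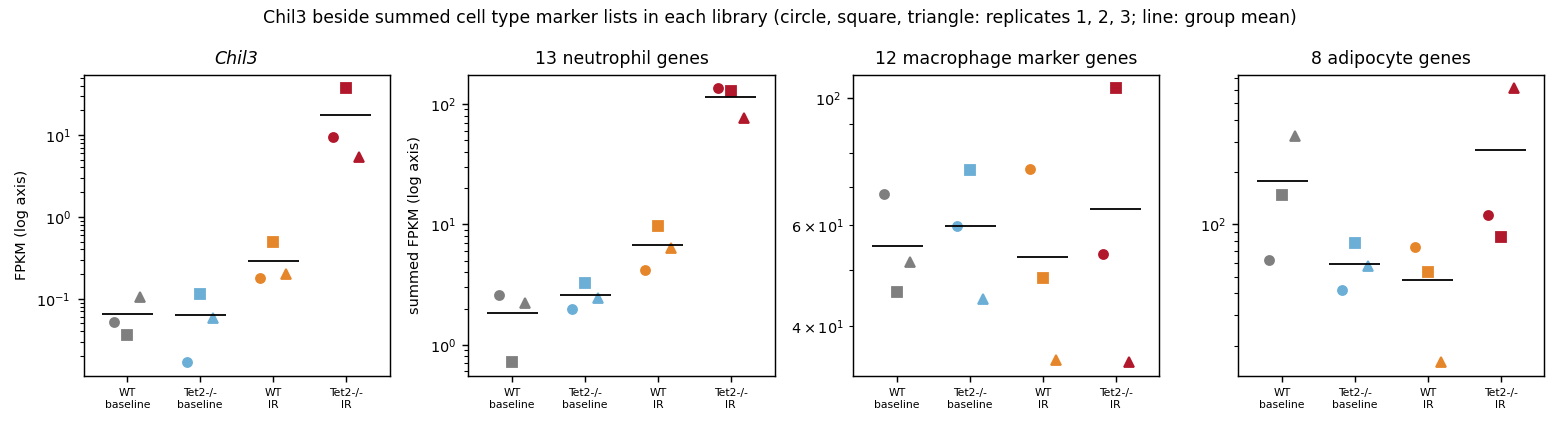
FPKM of Chil3 and summed FPKM of 13 neutrophil, 12 macrophage and 8 adipocyte genes, each on a log axis, in the 12 libraries; symbols are replicates 1, 2 and 3 and lines are group means. Chil3 and the neutrophil sum were both highest in the 3 IR libraries labelled Tet2-/-. There the neutrophil sum was 76.1 to 135, most of it from S100a8, S100a9 and Retnlg. The macrophage sum overlapped in all groups.

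The genes most like Chil3 over the 12 libraries, by the root mean square difference of mean-centred log2 CPM among 12892 genes, were Mmp8 (0.79), Retnlg (0.81), S100a8 (0.99), Clec4d (1.0) and Il1f9 (1.02). Chil3 itself varied by 3.09 on this scale. Mmp8, Retnlg and S100a8 are on the neutrophil list, and the alternative activation partners Mrc1 and Retnla were not among the 5 most alike. A mean of at least 1 FPKM in a group was needed to enter the search. Mmp8, Retnlg, Clec4d and Il1f9 reached it only in the IR group labelled Tet2-/-, where Chil3 is high too, so their place among the 5 is not a test. For Mrc1, with a variation of 0.96, the 5 were Gimap4 (0.33), Ntng2 (0.35), Gbp4 (0.35), Ccdc80 (0.39) and Il2rg (0.41). For Csf1r, with a variation of 1.20, they were Vwa2 (0.29), Dusp15, Hsbp1l1, Fbln7 and Ppp1r1a (0.36 each), none of which is on the monocyte and macrophage list. These 12 points share depth and group, and the differences describe these libraries.

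Csf1r, at chr18:61265226-61290793 (+) on mm9, was set beside other macrophage markers in the same libraries. Mertk, a receptor gene for the uptake of dying cells, was also lower after IR under the Tet2-/- label, at 6.62, 6.04 and 5.48 FPKM against 8.34, 9.04 and 7.80 FPKM (-0.73 ± 0.12, edgeR adjusted p = 0.00273), a change under the fold limit for a call. At baseline Csf1r was 33.0 to 64.3 times Adgre1 in FPKM in WT and 37.4 to 202 times under the Tet2-/- label. After IR it was 17.9 to 47.0 times Adgre1 in WT, which overlapped the WT baseline range, and 6.13 to 21.5 times under the Tet2-/- label, below the baseline range there. Relative to C1qa, a complement gene of resident macrophages, Csf1r was 1.98 to 3.15 in WT and 1.81 to 4.80 under the Tet2-/- label at baseline, and 0.865 to 2.0 in WT and 0.346 to 0.513 under the Tet2-/- label after IR. Relative to Cd68 it was 10.1 to 28.7 in the 6 baseline libraries and 0.173 to 1.76 in the 6 IR libraries. C1qa itself was at 6.45, 12.7 and 5.91 FPKM at baseline and at 8.65, 20.0 and 4.48 FPKM after IR under the Tet2-/- label, so it overlapped where Csf1r did not.

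The ligands of the receptor moved the other way. Csf1, the growth factor of macrophages, was at 1.61, 1.66 and 1.20 FPKM at baseline and at 10.2, 15.0 and 5.75 FPKM after IR under the Tet2-/- label (2.51 ± 0.30, edgeR adjusted p = 0.000715). Il34 was at 11.1, 15.6 and 14.0 FPKM at baseline and at 88.3, 65.3 and 89.6 FPKM after IR (2.33 ± 0.22, edgeR adjusted p = 0.000304). In both genes every IR library was above every baseline library, whereas Csf1r was below. In WT, Csf1 was at 2.75, 8.85 and 5.6 FPKM and Il34 at 19.8, 50.2 and 37.3 FPKM after IR, above all WT baseline libraries. Neither was called there (2.21 ± 0.45 and 1.28 ± 0.36, edgeR adjusted p = 0.0529 and 0.105), but Csf1 was called in 5 and Il34 in 4 of 16 alternatives.

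**Figure D4:**
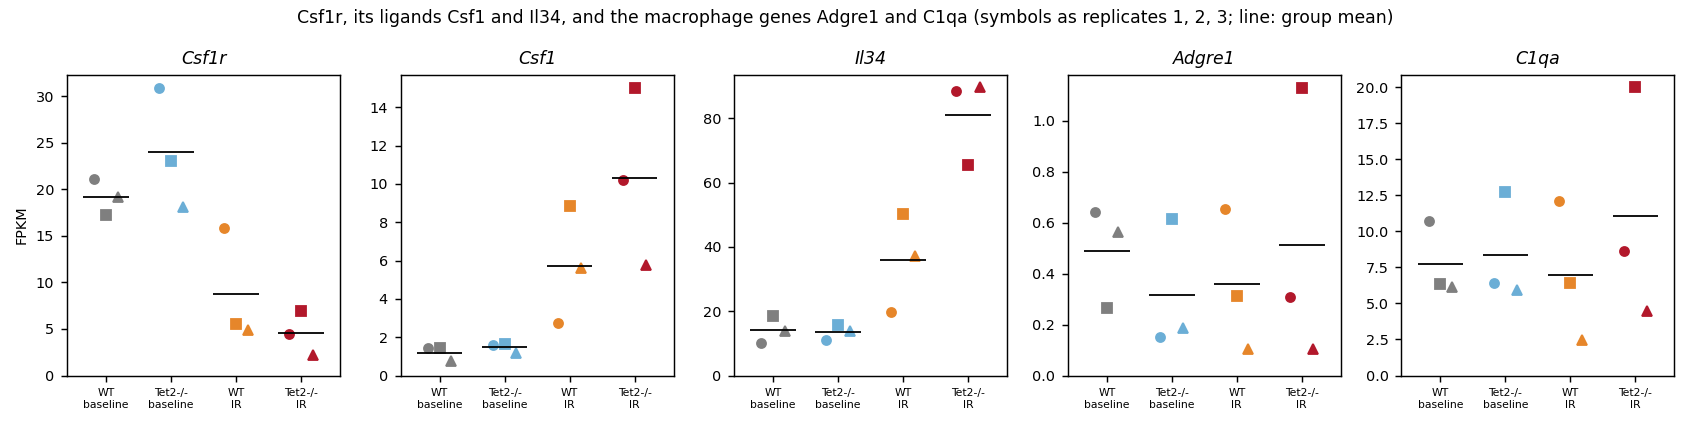
FPKM of Csf1r, of its ligands Csf1 and Il34 and of the macrophage genes Adgre1 and C1qa in the 12 libraries, on linear axes from 0; symbols are replicates 1, 2 and 3 and lines are group means. Csf1r was lower in the IR groups, with 2.21 to 6.93 under the Tet2-/- label, Csf1 and Il34 were higher there, and Adgre1 and C1qa overlapped.

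Of 16 growth factors, chemokines and polarizing cytokines with their receptors, 11 were tested for the IR effect under the Tet2-/- label, and 6 were called higher and 0 lower, beside 12.7% and 11.6% of all genes (median 1.28 beside 0.04 over all genes). Besides the ligands these were Ccl2 and Ccl7, which recruit monocytes (Ccl7 lost its call in 3 of 6 fits with 1 library left out), and the interferon-gamma receptor genes Ifngr1 and Ifngr2. Ccl2 rose from 0.317, 0.592 and 0.252 FPKM to 1.76, 7.38 and 1.71 FPKM (2.89 ± 0.66, edgeR adjusted p = 0.0104). Between the genotype labels after IR, 1 of 12 was called higher and 0 lower, beside 2.3% and 3.85% of all genes. It was Csf2rb, the shared beta chain of the GM-CSF receptor (1.82 ± 0.45, edgeR adjusted p = 0.0492, lost in 5 of 6 fits with 1 library left out). Il13, which encodes an inducer of the alternative program, was listed at 0 in every library of both baseline groups and of WT IR. It held 0, 2.0 and 0.5 counts in the IR libraries labelled Tet2-/-. Il4, which encodes the other inducer, held at most 4.5 counts in any library, and neither was tested.

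Genes of the alternative program were called in both directions. After IR under the Tet2-/- label, 4 of 15 tested were called higher (Hmox1, Tgm2, Irf4 and Il4ra) and 3 lower (Mgl2, Igf1 and Clec10a), with a median of -0.05 beside 0.04 over all genes, where 12.7% of all genes were called higher and 11.6% lower. The Clec10a groups overlapped in FPKM, and its call changed in 9 of 15 alternatives. Hmox1, the haem oxygenase gene that many injured cells express, rose from 16.1, 24.2 and 16.2 FPKM to 662, 329 and 197 FPKM (4.13 ± 0.46, edgeR adjusted p = 0.000586). Tgm2, which encodes a transglutaminase, rose from 35.5, 40.7 and 47.6 FPKM to 160, 202 and 217 FPKM (1.97 ± 0.21, edgeR adjusted p = 0.000503). Mgl2, a lectin gene of macrophages and dendritic cells, fell from 0.664, 1.79 and 1.17 FPKM to 0.486, 0.381 and 0.041 FPKM (-2.28 ± 0.75, edgeR adjusted p = 0.0427), a call lost in 4 of 6 fits with 1 library left out. In WT, 0 of 15 were called in either direction by edgeR (median -0.47), beside 1.46% and 0.887% of all genes called higher and lower, but Tgm2 (1.21 ± 0.25, adjusted p = 0.0549) was called in 9 and Hmox1 (2.65 ± 0.56, adjusted p = 0.0564) in 5 of 16 alternatives.

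Between the genotype labels after IR, 1 of 15 genes of this program was called higher, Irf4, and 0 lower, beside 2.3% and 3.85% of all genes (median 0.59 beside 0.04). Irf4 was at or below 0.166 FPKM throughout, is named after its value was seen, and lost its call in 6 of 6 fits with 1 library left out (1.51 ± 0.35, edgeR adjusted p = 0.0425). Chil3 and Irf4 thus stood higher under the Tet2-/- label while Mrc1 overlapped. Retnla also stood higher without overlap, but was measured by few counts. Il4ra did not overlap either, at a change under the fold limit for a call (0.94 ± 0.15, edgeR adjusted p = 0.0175).

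Genes of the classical program were also called in both directions. After IR under the Tet2-/- label, 5 of 15 were called higher and 3 lower (Cxcl9, Cxcl11 and Irf5), beside 12.7% and 11.6% of all genes, with a median of 0.30 beside 0.04. Il6 and Cd80 passed the filter on low counts only in comparisons with these IR libraries, where they are high, and are not counted. Il6 was at 1.38 ± 0.896 FPKM after IR and at 0.0217 ± 0.0117 FPKM at baseline. Socs3, an inhibitor of cytokine signalling, rose to 20.9 ± 6.20 FPKM from 0.749 ± 0.302 FPKM (4.52 ± 0.34, edgeR adjusted p = 0.000143). The others called higher were Ptgs2, Il1b, Tnf and Cxcl10, of which Tnf, with groups that overlapped in FPKM, changed its call in 8 and Cxcl10 in 5 of 15 alternatives. Of the genes called lower, Cxcl11 changed its call in 7 of 15 alternatives. Between the genotype labels after IR, 1 of 14 was called higher and 0 lower, beside 2.3% and 3.85% of all genes (median 0.59 beside 0.04): Il1b was at 0.468, 0.340 and 0.528 FPKM in WT and at 2.22, 4.84 and 1.92 FPKM under the Tet2-/- label (2.59 ± 0.43, edgeR adjusted p = 0.0194). Without WT IR replicate 1 the call was lost. In WT, 0 of 15 were called higher and 1 lower after IR, beside 1.46% and 0.887% of all genes, the chemokine gene Cxcl9 (-2.83 ± 0.42, edgeR adjusted p = 0.0225, lost in 5 of 6 fits with 1 library left out). Cxcl9 passed the filter on low counts only in comparisons with baseline libraries, where it is high. The members' own classical marker, Nos2, was called in none of the comparisons.

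Of 31 monocyte and macrophage identity genes, 26 were tested in each comparison. After IR in WT, 1 was called higher and 0 lower, beside 1.46% and 0.887% of all genes. It was Cd14, the lipopolysaccharide co-receptor gene (2.25 ± 0.43, edgeR adjusted p = 0.0444, lost in 5 of 6 fits with 1 library left out). After IR under the Tet2-/- label, 5 were called higher and 1 lower, beside 12.7% and 11.6% of all genes (median 0.78 beside 0.04): Cd14 (4.56 ± 0.31), F13a1 (4.40 ± 0.91), Itgam (3.50 ± 0.66), Lyve1, Plac8 and, lower, Folr2 (-1.50 ± 0.39). With 1 library left out, Lyve1 lost its call in 3 and Plac8 and Folr2 in 2 of 6 fits each. Between the genotype labels after IR, 3 of 26 were called higher and 0 lower, beside 2.3% and 3.85% of all genes (median 0.93 beside 0.04). These were Cd14, at 4.89, 15.1 and 5.90 FPKM in WT and at 50.9, 31.9 and 31.9 FPKM under the Tet2-/- label (2.08 ± 0.43), the integrin gene Itgam, which neutrophils also express (2.89 ± 0.65), and F13a1, a gene of monocytes (3.51 ± 0.75). Each of these 3 calls was lost in 5 of 6 fits with 1 library left out. Folr2, a gene of resident macrophages, was at 0.755, 0.947 and 0.956 FPKM after IR under the Tet2-/- label and at 0.931, 1.05 and 1.07 FPKM in WT.

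**Figure D5:**
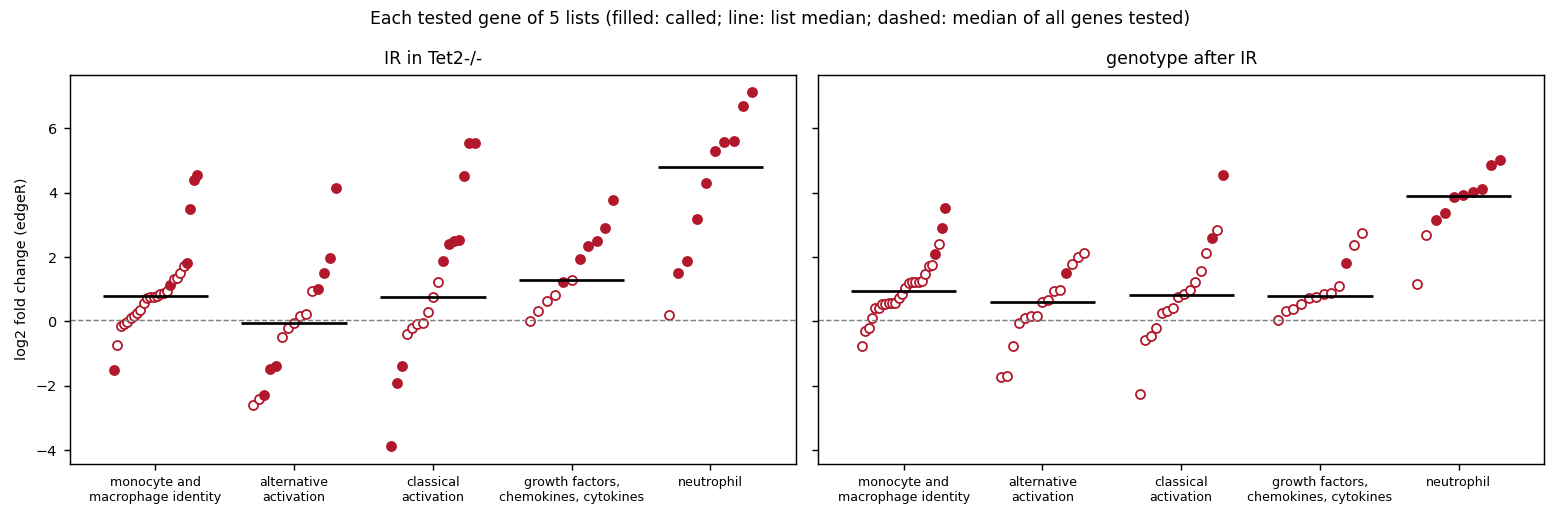
Log2 fold change by edgeR of each tested gene of 5 lists, for the IR effect under the Tet2-/- label (left) and for the genotype labels after IR (right); filled points were called, the line is the list median and the dashed line the median of all genes tested. The alternative list spread on both sides of 0 with medians of -0.05 and 0.59, and of the genes shown, 5 of 10 on the neutrophil list and Il6 and Cd80 on the classical list passed the filter on low counts only in comparisons with the IR libraries labelled Tet2-/-.

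The close copies gave the following values. Chil4 was at most 0.467 FPKM, with 17.5, 90.0 and 32.0 counts in the IR libraries labelled Tet2-/- and at most 4.5 in any other library, beside at least 774.5 counts of Chil3 in the same libraries. It passed the filter on low counts only in comparisons with these libraries, where it is high, so no test of it is given. Lyz1 was at 0.165, 1.80 and 0.071 FPKM after IR under the Tet2-/- label, highest in replicate 2 as Lyz2 was, and was not called (1.63 ± 1.13, adjusted p = 0.275). Retnlg, a resistin-like relative of Retnla that neutrophils express, was at 0.191, 0.680 and 0.243 FPKM in WT and at 15.9, 10.8 and 12.3 FPKM under the Tet2-/- label after IR, with the same limit of the filter, while Retnla stayed at or below 0.243 FPKM there. Retn, an adipocyte gene in the mouse, reached 1.97 ± 3.28 FPKM after IR under the Tet2-/- label and 1.61 ± 1.48 FPKM at WT baseline, the groups with the libraries of high adipocyte genes. Cd163l1, a relative of Cd163, was at 0.141 ± 0.0953 FPKM at WT baseline and 0.0163 ± 0.00416 FPKM after IR. It passed the filter on low counts there only through the WT baseline libraries, where it is high, so no test of it is given.

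Single libraries carried much of the spread in the macrophage genes. IR replicate 2 of the Tet2-/- label was the highest of its group for 9 of 10 members, where 49.4% of all 16741 genes were highest in it, and the exception was Nos2. At baseline under the same label, replicate 2 was the highest for 7 of 10 members (36.4% of all genes). In WT IR, replicate 1 was the highest for 7 of 10 members (40.2% of all genes), the exceptions being Cd68, Msr1 and Chil3. At WT baseline, replicate 1 was the highest for 6 of 10 members (24.2% of all genes). C1qa followed the same libraries, with 20.0 FPKM in IR replicate 2 of the Tet2-/- label and 12.1 FPKM in WT IR replicate 1.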

How the data were processed

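Whole-kidney RNA-seq libraries (12 in 4 groups of 3, 51007366 to 107969888 counts each on the transcripts used) were analysed. Reads had been mapped by the authors with STAR (mm9) and quantified over RefSeq transcripts by HOMER. The deposited expected counts of the authors rise in steps of 0.5 (38.7% not whole) and were rounded here. The authors also deposited FPKM of the same transcripts, which were used for levels. Strand setting and the treatment of reads with several matches are not given in the sources used here. The table lists 34600 transcripts. The design assumed whole counts.

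Counts were tested in R 4.3.3 with edgeR 4.0.16 (TMM, its default low-count filter, quasi-likelihood F test, Benjamini-Hochberg over all genes tested) on the 6 libraries of each comparison, the interaction on all 12. Standard errors were derived from the F statistic. Alternatives used DESeq2 1.42.0, limma 3.58.1 on log2(FPKM + 0.1) and log2(FPKM + 1), other scalings, filters, transcript sums, a replicate block and each library left out. An exact permutation test of 3 against 3 cannot go below 0.1, so single values were not tested alone. Deviations of same-numbered libraries had correlations of 0.349, 0.349 and 0.344 between baseline and IR in WT. Under the Tet2-/- label they were 0.12, 0.35 and 0.202. The study's methods use separate mice for baseline and IR, so the numbers do not pair animals, and the replicate block is an alternative only. Scripts were tested on simulated data.

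Named genes are the 10 members and, per list and comparison, at most 4 called genes of largest fold change with a mean FPKM of at least 1, plus the close copies. Genes named beyond these were chosen after their values were seen. List counts leave out genes that passed the low-count filter only through the IR libraries labelled Tet2-/-, a choice made after seeing the data. The members and lists were chosen with earlier results of these data known. Sequences were compared with Biopython 1.88. An item of the alternative activation list is not reported here.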

Additional observations from a re-analysis of the deposited data

Results flagged for a closer look

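The IR effect on Chil3, the chitinase-like gene used as an alternative activation marker, was larger by 5.61 on the log2 scale under the Tet2-/- label than in WT (edgeR's quasi-likelihood test of the interaction, adjusted p = 0.0156). This passed as a tested difference between the genotype labels, but the call was lost without WT baseline replicate 3 (5.08, edgeR adjusted p = 0.0594). All 3 IR libraries labelled Tet2-/- were above all other libraries. In the same 3 libraries the summed FPKM of 13 neutrophil genes was 76.1 to 135, against at most 9.67 in the other libraries. Most of that sum came from S100a8, S100a9 and Retnlg. The part of neutrophils in the Chil3 difference was not tested.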

How the results depend on the processing

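The count of members lower after IR in WT, 1, was 2 with DESeq2 and with the replicate block, 0 with limma on log2(FPKM + 1), 0 with WT baseline replicates 2 and 3 left out, when the count of members higher was also 0, and 0 to 2 with 1 library left out. The count higher between the genotype labels after IR, 1, was 2 with DESeq2, with all 12 libraries fitted together and with the replicate block. The block gave Msr1 at 2.79 (edgeR adjusted p = 0.0236), where same-numbered libraries had correlations of 0, 0.206 and 0.303. The count was 0 to 1 with 1 library left out. For the interaction it was 0 to 2. The replicate block changed no call of a member beyond Csf1r in WT, Lyz2 under the Tet2-/- label and Msr1. Values that changed sign, none of them called, were Cx3cr1 for IR under the Tet2-/- label with library sizes alone (0.08), Nos2 there with the replicate block (-0.01), and at baseline, with WT replicates 2 and 3 left out, Mrc1 (-0.25) and Cd163 (-0.34). With 1 library left out, log2 fold changes crossed 0 for Cx3cr1 in the IR effect in WT (-0.27 to 1.04). For IR under the Tet2-/- label they did for Lyz2 (-0.13 to 3.15), Cx3cr1 (-1.57 to 0.33), Mrc1 (-0.32 to 0.78), Cd163 (-0.10 to 1.39), Retnla (-1.33 to 0.59) and Nos2 (-0.45 to 0.39). At baseline they did for Lyz2 (-1.32 to 0.13), Cx3cr1 (-0.46 to 0.18), Mrc1 (-0.41 to 0.53), Cd163 (-0.65 to 1.0) and Nos2 (-0.24 to 0.06). After IR, Lyz2 between the labels (-0.00 to 2.70) and Cx3cr1 in the interaction (-2.25 to 0.09) did so. Of 779 member fold changes under alternatives, 733 kept direction and side of the threshold, 8 newly passed, 10 no longer passed and 28 changed sign, and the cause was not tested. Over all genes, counts higher and lower moved by more than 1.5 times from 234 and 142 to 488 and 490 (DESeq2) and to 428 and 559 (replicate block) for IR in WT, from 2 and 0 to 23 and 298 at baseline (DESeq2), from 373 and 623 to 770 and 872 after IR (DESeq2), and from 634 and 902 to 1210 and 1600 for the interaction (DESeq2). Fitting all 12 libraries together gave 373 and 258 for IR in WT and 714 and 879 for genotype after IR, limma on log2(FPKM + 1) gave 154 and 82 for IR in WT, 1440 and 816 for IR under the Tet2-/- label, 226 and 369 for genotype after IR, and 1069 and 596 for the interaction, the replicate block gave 1024 and 1077 for the interaction, and dropping the fold change limit gave 3741 and 3313 for IR under the Tet2-/- label and 568 and 999 for genotype after IR. With 1 library left out, counts higher and lower ran from 41 to 365 and 37 to 183 for IR in WT, 65 to 319 and 229 to 623 for genotype after IR, 147 to 980 and 485 to 1064 for the interaction, and 2 to 3 and 0 to 7 at baseline. With library sizes alone the median of all genes moved from 0.04 to 0.27 for IR under the Tet2-/- label and the split from 2078 and 1896 to 2860 and 1397, and for the interaction from 0.10 to 0.24 and from 634 and 902 to 1129 and 700. Counts under 30 in at least 1 library limit what could be seen for Cx3cr1, Mrc1, Cd163, Msr1, Chil3, Retnla and Nos2.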
